A study of Mus musculus with 10 samples.

Results

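The regions described here are 633 short genomic elements of mouse mast cells that carried both histone H3 lysine 27 acetylation (H3K27ac) and histone H3 lysine 4 monomethylation (H3K4me1), and that stood apart from all other shared H3K27ac. They were chosen from the positions of the deposited peaks. Overlapping peaks of a mark were merged, and a merged region was kept as a consensus region where each list of that mark had a peak in it. Overlapping consensus regions of the marks were then joined from an overlap of 1 bp, which gave 7588 joined regions, 7557 of them on chromosomes 1 to 19. A member is a joined region of at most 1500 bp on chromosomes 1 to 19 with no other H3K27ac consensus region within 12.5 kb of either edge. The 633 members were 22.1% of the 2864 joined regions of that length (95% Clopper-Pearson interval 20.6 to 23.7%), and together they covered 631 kb. The other 2231 short joined regions had another H3K27ac consensus region within 12.5 kb and are called short crowded regions below. A further 869 joined regions stood equally apart but were longer, and are called long solitary regions. Length, H3K27ac neighbours and the presence of a peak in every list were set by the choice of the members, so these are described and not tested.

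The cells were bone marrow-derived mast cells of C57BL/6 mice aged 6 to 8 weeks. Marrow of the tibias and femurs was cultured in 20 ng/ml interleukin-3 for 4 weeks, and more than 99% of the cells carried the IgE receptor FcεRI and c-Kit by flow cytometry, per the labels. The study mapped chromatin by ChIP-seq with 3 H3K27ac immunoprecipitates and 2 H3K4me1 immunoprecipitates, each set against its own input, which makes 10 samples with the 5 inputs. All cells were of this 1 kind, with no treatment named in the labels, and the labels leave unsaid whether each replicate came from its own culture or animal, so the spread between lists may be technical. The lists hold no expression values, so the identity of the cells rests on the labels.

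H3K4me1 is laid down mainly by the MLL3 and MLL4 methyltransferases and marks active and inactive enhancers alike. H3K27ac is laid down by the acetyltransferases p300 and CBP and is found at enhancers and promoters in use. Enhancers with both marks can lie alone or in dense clusters, and clusters of long acetylated stretches are often found near genes that define a cell type. The members are the opposite arrangement, a short acetylated element with no shared acetylation close by. A short solitary element may be an enhancer or a promoter, and the marks alone do not tell these apart.

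The caller used 10457047 to 16356587 H3K27ac tags and 14685161 to 19513552 H3K4me1 tags per list, with 9433267 to 19265001 tags in the inputs. The lists held 39837, 34035 and 30599 H3K27ac peaks for replicates 1, 2 and 3, and 70726 and 59430 H3K4me1 peaks for replicates 1 and 2. The consensus sets held 19670 H3K27ac and 42329 H3K4me1 regions. Peaks passed the caller's limit of q at most 0.001, and a place without a peak is only one where that limit was not passed.

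The members were single, compact units. Of the 633, 610 were made of exactly 1 consensus region of each mark, 19 held 2 H3K4me1 regions and 4 held 2 H3K27ac regions. Their median length was 998 bp, with quartiles of 758 and 1251 bp and a range of 345 to 1499 bp, against a median of 1038 bp in short crowded regions. The H3K27ac part had a median of 746 bp in members and 854 bp in short crowded regions. The H3K4me1 part had a median of 604 bp in members and 613 bp in short crowded regions. Members were therefore shorter mainly in their acetylated part. In 435 members (68.7%) every list held exactly 1 peak, against 66.1% of short crowded regions.

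At the length limit, the longest member had 1499 bp, lay on chromosome 18 and had a highest fold enrichment over input of 12.5, 4.59 and 8.43 in H3K27ac replicates 1, 2 and 3 and of 7.51 and 5.23 in H3K4me1 replicates 1 and 2. The nearest solitary region beyond the limit, chr11:71854260-71855762 (mm9), had 1503 bp, with H3K27ac folds of 16.3, 11.3 and 19.8, and H3K4me1 folds of 7.18 and 5.38. At the distance limit, the closest member to other H3K27ac was chr1:175325644-175326283, at 12509 bp. The nearest short region left out, chr12:116383180-116384201, lay at 12480 bp. The limits are therefore cuts through a continuous range of lengths and distances.

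Within a member the marks overlapped but were offset. The overlap of the parts had a median of 424 bp in members and 478 bp in short crowded regions, which is a median of 46.9% and 53.0% of the region, and in members it ran from 1 to 1318 bp. In 397 members (62.7%, interval 58.8 to 66.5%) each mark covered bases that the other did not, against 54.9% of short crowded regions. All bases of the H3K4me1 part lay within the H3K27ac part in 166 members (26.2%), against 36.8% of short crowded regions. The reverse, all acetylated bases within the H3K4me1 part, was found in 70 members (11.1%) and in 8.38% of short crowded regions. The H3K27ac part merges peaks of 3 lists and the H3K4me1 part those of 2. These shares therefore compare groups of regions and not the marks.

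The centres of the parts were a median of 190.5 bp apart in members, with quartiles of 76 and 353.5 bp and a maximum of 711 bp, against a median of 162.5 bp in short crowded regions. Between the summits of the marks, each the median position over the mark's lists, the median was 226.5 bp in members and 195.5 bp in short crowded regions. The summits lay under 200 bp apart in 298 members (47.1%) and over 500 bp apart in 117 (18.5%), against 50.6% and 18.2% of short crowded regions. The members thus ranged from elements with both summits at about the same place to elements with the summits at opposite ends.

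The offset was larger than the scatter of the same mark between replicates. Summits of the highest peaks of lists of the same mark lay a median of 85, 70 and 93 bp apart in the 3 pairs of H3K27ac lists and 50 bp apart in the H3K4me1 pair. In the 6 pairs of lists of different marks the median was 214 to 235 bp. In same-mark pairs 52.4 to 69.2% of the members had summits within 100 bp, and in pairs of different marks 26.5 to 31.8% did. Short crowded regions had the same pattern, with medians of 52 to 91 bp in same-mark pairs and 207 to 218 bp in pairs of different marks, so it is not particular to the members.

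The place of one summit within the peaks of the other mark gives the same layout in another way. The H3K27ac summit fell inside an H3K4me1 peak of both lists in 332 members (52.4%, interval 48.5 to 56.4%), of a single list in 94 (14.8%) and of neither in 207 (32.7%, interval 29.1 to 36.5%). In short crowded regions it fell inside no H3K4me1 peak in 27.3%, and in long solitary regions in 46.0%. In 105 members (16.6%) at least 1 H3K4me1 list had a gap over the H3K27ac summit with H3K4me1 peaks within 1000 bp on each side, and in 39 of them (6.16% of members) both lists did. The corresponding shares were 17.2% and 6.72% in short crowded regions and 26.5% and 10.6% in long solitary regions. The H3K4me1 summit fell inside an H3K27ac peak of all 3 lists in 265 members (41.9%, interval 38.0 to 45.8%) and in 55.1% of short crowded regions. It fell inside none in 114 members (18%) and 10.98% of short crowded regions. Long solitary regions had 48.3% and 16.9%, so a summit outside all H3K27ac peaks was about as frequent there as in members.

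The H3K4me1 part was the longer one in 240 members (37.9%, interval 34.1 to 41.8%), against 28.6% of short crowded regions. The share moved with the lists used. It was 27.2% without H3K4me1 replicate 1 and 16.5% without H3K4me1 replicate 2, and 51.7%, 48.7% and 49.5% without H3K27ac replicate 1, 2 or 3. A part merges the peaks of all lists of its mark, 3 for H3K27ac and 2 for H3K4me1. With 2 lists of each mark the share was 48.7 to 51.7%. With all 3 H3K27ac lists, but a peak asked for in only 2 of them, it was 52.5%. The part of the number of lists in these shifts was not tested. Which mark reached farther in a member therefore has no fixed answer in these lists.

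**Figure D1:**
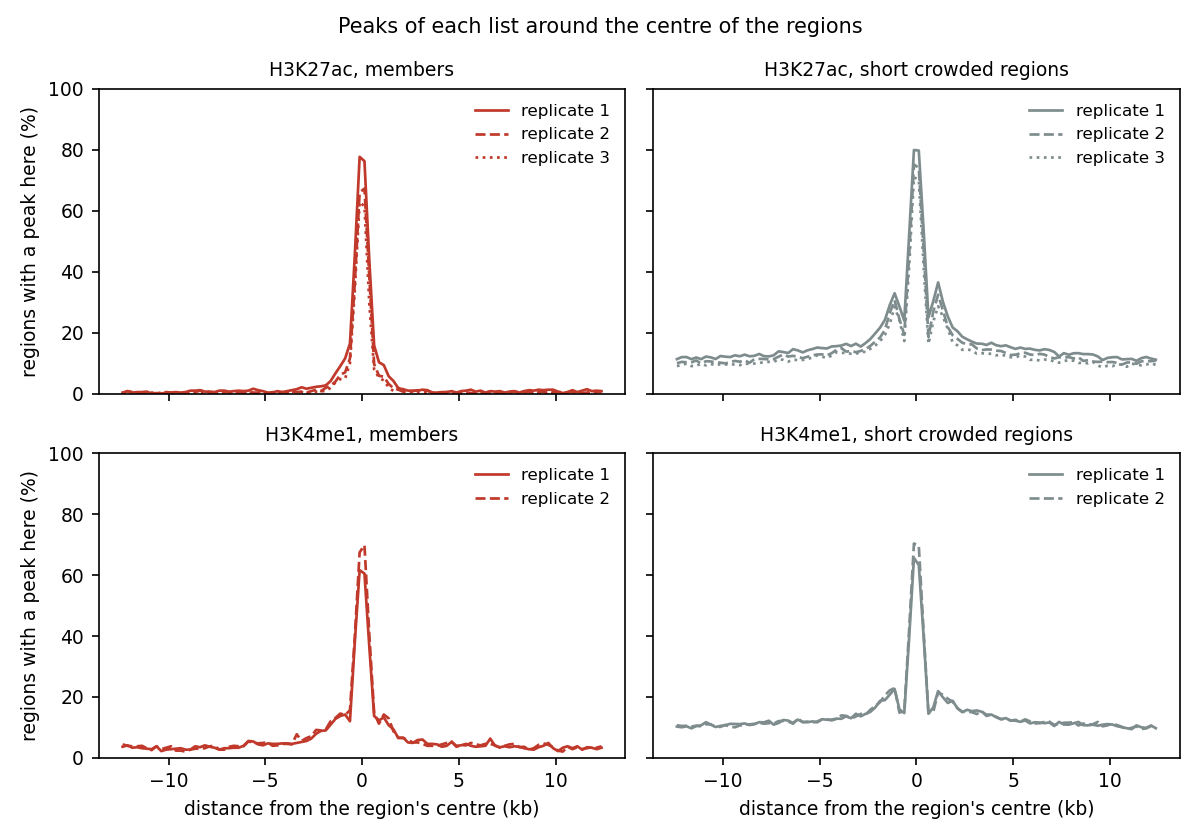
Share of regions (vertical axis, %) with a peak of each list in bins of distance from the centre of the region (horizontal axis, kb), for members (left) and short crowded regions (right), with H3K27ac above and H3K4me1 below and 1 line per replicate. H3K27ac in members falls outside the centre, where the choice of members limits it, but is near 0 only from about 2 kb outward. In replicate 1 it is still at 11.5 and 10.3% in the bins at -875 and 875 bp. At 2 to 5 kb in members it is at 1.03% in replicate 1 and lower in replicates 2 and 3. H3K4me1 at 2 to 5 kb is at 5.23 and 5.37% in members, against 14.0% in short crowded regions.

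Solitary in H3K27ac did not mean solitary in H3K4me1. Of the 633 members, 432 (68.2%, interval 64.5 to 71.9%) had another H3K4me1 consensus region within 12.5 kb, against 2012 of 2231 short crowded regions (90.2%, interval 88.9 to 91.4%) and 73.1% of long solitary regions. The neighbour was within 5000 bp in 344 members (54.3%), against 79.9% of short crowded regions. It was within 1000 bp in 228 members (36.0%), against 54.1% of short crowded regions and 33.9% of long solitary regions. Neighbours lay on both sides in 178 members (28.1%), on one side in 254 (40.1%) and on neither in 201 (31.8%), while 56.9% of short crowded regions had them on both sides and 9.82% on neither. Part of this contrast is set by the choice of members, since an H3K4me1 region that overlaps a nearby H3K27ac consensus region can occur beside a short crowded region and not beside a member.

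The amount of H3K4me1 around members was below that around short crowded regions. It was nearer to that around long solitary regions, but still lower by number and cover. The median number of H3K4me1 consensus regions within 12.5 kb was 1 for members, 3 for short crowded regions and 2 for long solitary regions. The maxima were 11, 18 and 12. Of the members, 154 (24.3%) had 3 or more, against 61.3% of short crowded regions and 32.6% of long solitary regions. A median of 2.79% of the members' flanks was covered by H3K4me1 consensus regions, against 9.28% for short crowded regions and 3.68% for long solitary regions. The distance to the nearest other H3K4me1 region had a median of 3991 bp in members, with a range of 7 to 2190907 bp, against 834 bp in short crowded regions and 3954 bp in long solitary regions. The marks were called to different numbers of peaks and by different versions of the caller, so these are differences between groups of regions for the same mark, not between marks.

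Members with and without an H3K4me1 neighbour had median folds close to each other, with no test made. Median H3K27ac folds in replicates 1, 2 and 3 were 8.42, 6.48 and 6.96 in the 228 members with a neighbour within 1000 bp. They were 8.69, 6.57 and 7.22 in the 204 members with a neighbour from 1001 bp to 12.5 kb, and 9.08, 6.35 and 7.22 in the 201 without one. The order of the groups was not shared by the 3 lists. Median H3K4me1 folds in replicates 1 and 2 were 7.39 and 6.58 with a neighbour within 1000 bp, 6.92 and 6.63 with one farther out, and 6.73 and 6.34 with none, so members without a neighbour were lowest in both lists.

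**Figure D2:**
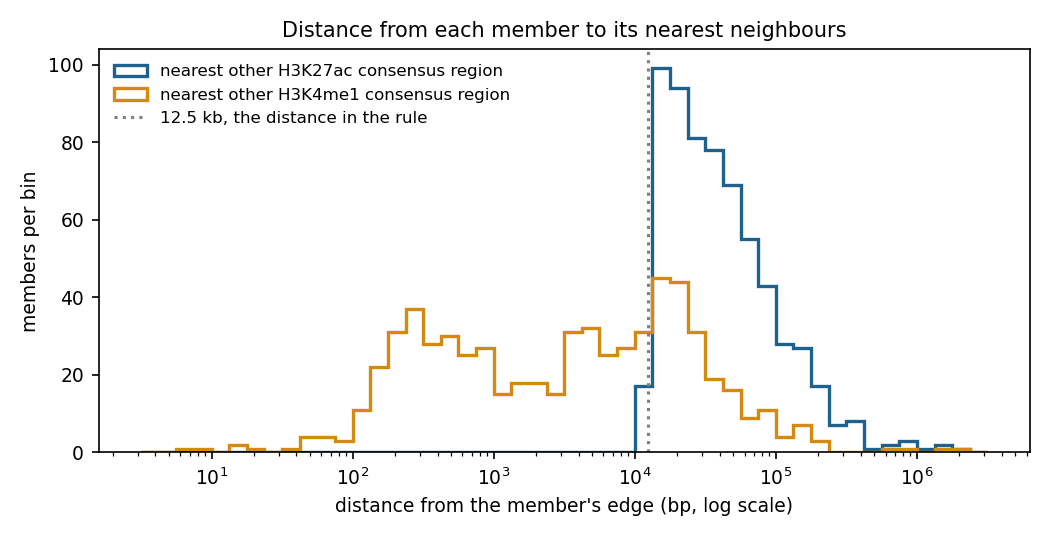
Number of members (vertical axis) by distance from the member's edge to the nearest other consensus region of each mark (horizontal axis, bp, log scale), with the 12.5 kb limit dotted. The H3K27ac distances begin at the limit that chose the members and have a median of 34.8 kb, while the H3K4me1 distances spread from 7 to 2190907 bp with a median of 3991 bp.

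The nearest other H3K27ac consensus region lay at a median of 34.8 kb from a member, with quartiles of 20.1 and 66.0 kb. It was over 50 kb away for 218 members (34.4%), over 100 kb for 97 (15.3%), over 500 kb for 10 and over 1000 kb for 4. That neighbour overlapped an H3K4me1 consensus region in 265 members (41.9%, interval 38.0 to 45.8%), against 55.6% for short crowded regions and 45.0% for long solitary regions. Its median length was 918 bp beside members, 1052 bp beside short crowded regions and 975 bp beside long solitary regions. On both measures members were nearer to long solitary regions. Short crowded regions lay a median of 301 bp from the next H3K27ac region, so another acetylated region was often directly beside them. The 739 of them over 1000 bp from other H3K27ac, a subset chosen after seeing the data, had an H3K4me1 neighbour within 12.5 kb in 91.7%.

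Standing alone was a matter of consensus, and single lists often had acetylation nearby. Within 12.5 kb of the member's edges, H3K27ac replicate 1 had a further peak in 325 members (51.3%), replicate 2 in 243 (38.4%) and replicate 3 in 198 (31.3%). No H3K27ac list had one in 216 members (34.1%, interval 30.4 to 38.0%), 1 list in 133 (21.0%), 2 lists in 219 (34.6%) and all 3 lists, with no place shared by all 3, in 65 (10.3%). In 250 members (39.5%, interval 35.7 to 43.4%) a merged region of 2 H3K27ac lists lay in the flanks. In 47 members (7.42%) there was no peak of either mark there in any of the 5 lists. The number of members also rests on how peaks are joined and filtered: with peaks of a mark joined across gaps of up to 1000 bp there were 302 members, 54.2% of short joined regions, and with only peaks of a minus log10 q of at least 10 there were 212.

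These nearby peaks took up little of the flanks. Peaks of H3K27ac replicates 1, 2 and 3 covered a mean of 1.42%, 0.775% and 0.562% of the flanks of members, against 15.1%, 13.3% and 12.1% for short crowded regions. H3K4me1 replicates 1 and 2 covered 4.73% and 4.87% of the flanks of members, against 12.4% and 12.5% for short crowded regions. Both marks thus covered less of the flanks of members. The choice of members limited H3K27ac there, and with it the H3K4me1 that overlaps H3K27ac consensus regions.

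The peaks of members were slightly lower than those of short crowded regions. For H3K27ac replicates 1, 2 and 3, the highest fold in a region had a median of 8.64, 6.48 and 7.16 in members, against 9.04, 7.01 and 7.65 in short crowded regions. For H3K4me1 replicates 1 and 2 it was 7.02 and 6.54 in members, against 7.31 and 6.82 in short crowded regions. The ratio of the medians averaged 0.939 ± 0.0159 for H3K27ac (SD, n = 3 lists) and 0.960 ± 0.00157 for H3K4me1 (SD, n = 2 lists), below 1 in all 5 lists. These are the lists that chose the regions, so no test was made. Against short crowded regions over 1000 bp from other H3K27ac the mean ratio was 0.989 for H3K27ac and 0.966 for H3K4me1, and with peaks of a mark joined across 1000 bp it was 0.994 and 0.988.

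The highest folds of members ran from 3.32 to 25.8, from 3.29 to 15.5 and from 3.45 to 28.3 in the H3K27ac lists, and from 2.82 to 19.1 and from 2.41 to 15.9 in the H3K4me1 lists. In tags, the highest summit of a member had a median of 34, 18 and 19 for H3K27ac replicates 1, 2 and 3, against 36, 21 and 21 in short crowded regions. For H3K4me1 replicates 1 and 2 the medians were 38 and 32 tags in members, against 41 and 33 in short crowded regions. Counts of this size carry a counting error of several tags, which limits what the values of a single member can show.

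**Figure D3:**
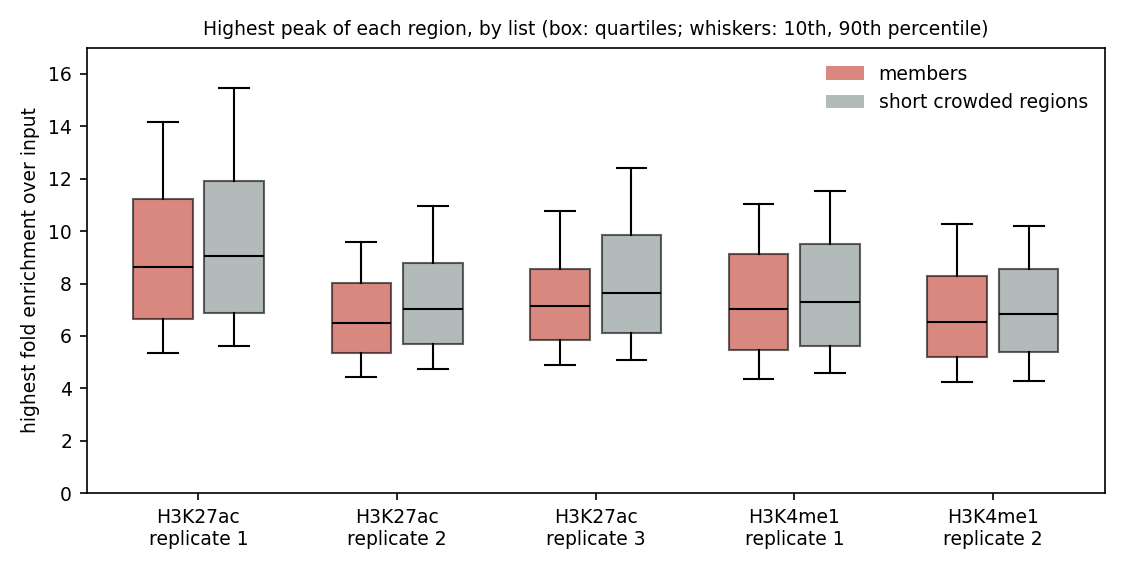
Highest fold enrichment over input in each region (vertical axis) for members and short crowded regions in each of the 5 lists (horizontal axis), with the median as a line, quartiles as the box and the percentiles named in the title as whiskers. The boxes overlap in every list, and the median of members is lower in all 5, as with 8.64 in members against 9.04 in short crowded regions for H3K27ac replicate 1.

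Fold also went with length. Among members, the Spearman correlation of length with the mean rank by H3K27ac fold was -0.20 and with the mean rank by H3K4me1 fold -0.09 over 633 members, with rank 1 the highest fold, so longer members had somewhat higher H3K27ac folds. In classes of 250 bp of length, the ratio of medians of members over short crowded regions ran from 0.825 to 1.03 over lists and classes. Among members of 1251 to 1500 bp it was below 1 in all 5 lists, with medians of 8.74, 6.88 and 7.66 for H3K27ac in members and 10.0, 7.63 and 8.15 in short crowded regions. Members were lower than long solitary regions, which had H3K27ac medians of 12.9, 8.80 and 10.17 and H3K4me1 medians of 8.50 and 7.33. Members over long solitary regions gave a mean ratio of 0.703 ± 0.0338 for H3K27ac (SD, n = 3 lists) and 0.859 ± 0.0463 for H3K4me1 (SD, n = 2 lists).

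A smaller share of members than of short crowded or long solitary regions was strong in every list. A minus log10 q of at least 10 in all 5 lists was reached by 98 members (15.5%), against 569 short crowded regions (25.5%). A value under 5 in at least 1 list was found in 145 members (22.9%) and in 16.2% of short crowded regions. In 56 members (8.85%) and in 5.92% of short crowded regions the highest peak of some list was no longer than the estimated fragment, the shortest peak the caller reports.

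A list left out of the choice of members gives peaks that the choice did not use. The choice still limits the H3K27ac neighbours of members. Members and short crowded regions were rebuilt from 4 lists, and the share with a peak in the list left out was read. For H3K27ac replicate 1 it was 591 of 660 members (89.5%, interval 87.0 to 91.8%) against 92.8% of 3040 short crowded regions. For replicate 2 it was 545 of 716 members (76.1%, interval 72.8 to 79.2%) against 86.0% of 3185 short crowded regions, and for replicate 3 it was 525 of 760 members (69.1%, interval 65.7 to 72.4%) against 79.3% of 3378. Members were thus found again less often in each acetylation list, with differences of -3.25, -9.88 and -10.3 percentage points. However, any overlap of a peak with the region counted. With all lists used, short crowded regions lay a median of 301 bp from other H3K27ac, so a neighbour's peak could reach into them. Members have no shared H3K27ac neighbour within 12.5 kb, and the part of this in the differences was not tested.

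For H3K4me1 replicate 1 the share was 670 of 798 members (84.0%, interval 81.2 to 86.4%) against 85.2% of 2841 short crowded regions. For H3K4me1 replicate 2 it was 692 of 944 members (73.3%, interval 70.4 to 76.1%) against 76.1% of 3324, and in both H3K4me1 lists the intervals of members and short crowded regions overlapped. Members minus short crowded regions averaged -5.50 ± 4.24 percentage points (SD, n = 5 lists) and was negative in 5 of 5. It was -2.93 percentage points, and negative in 4 of 5, with peaks of a mark joined across 1000 bp. The exact two-sided sign-flip permutation test over lists gave p = 0.0625, which is the smallest that 5 lists allow, so the design cannot reach 0.05. The 5 differences are also not independent, since the sets of regions were rebuilt from lists that they share. The test takes them as independent, so no conclusion is drawn from its p-value, here or under the alternatives below. Highest folds were also lower in members than in short crowded regions, as given above, and the part of that in the mean difference was not tested.

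**Figure D4:**
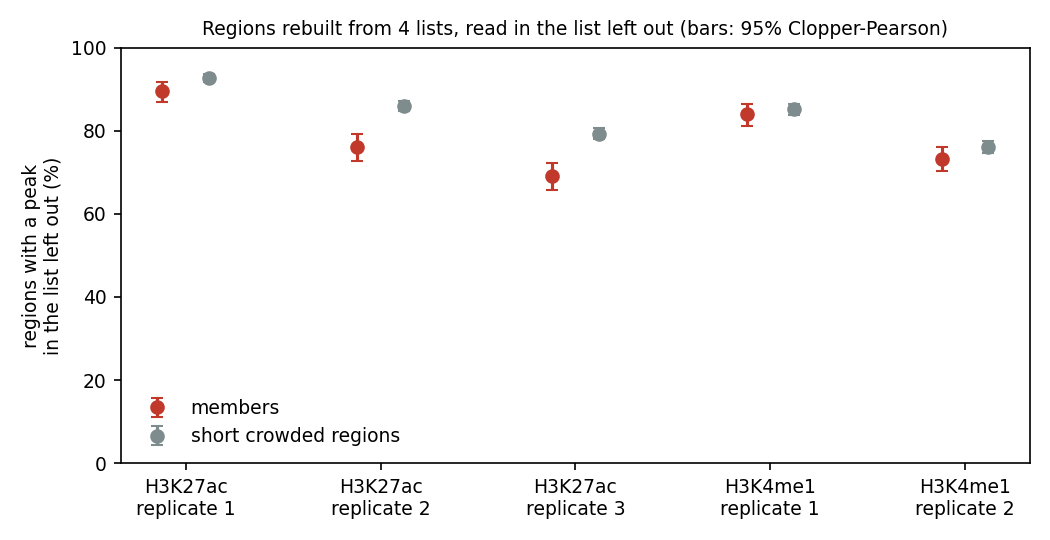
Share of regions rebuilt from 4 lists that held a peak in the list left out (vertical axis, %), for members and short crowded regions in each list (horizontal axis), with 95% Clopper-Pearson intervals as bars. Members lie below short crowded regions in all 5 lists, with a difference of -10.3 percentage points for H3K27ac replicate 3 and -1.26 for H3K4me1 replicate 1.

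The order of the members by fold was weakly shared between replicates of a mark, and between marks the correlation was near 0. The Spearman correlation of the highest fold across the 633 members was 0.23 to 0.26 for the 3 pairs of H3K27ac lists and 0.22 for the H3K4me1 pair. In the 6 pairs of different marks it was -0.07 to 0.06, and between the mean ranks of the marks it was -0.03. These are descriptions across regions that share libraries. Since the values were low within a mark too, a low value between marks is no finding. In short crowded regions the correlation was 0.34 to 0.37 for H3K27ac pairs and 0.18 for the H3K4me1 pair.

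By mean rank, 28 of the 159 members in the best 25% for H3K27ac were also in the best 25% for H3K4me1, and 36 were in its lowest 25%. Of members in the lowest 25% for H3K27ac, 42 were in the best 25% for H3K4me1 and 40 in its lowest. Each combination of high and low was thus held by 28 to 42 members. By definition about 25% of all members are in each class, and the counts were not computed for short crowded regions. No result is read from them.

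The 8 members with the best mean of ranks over both marks are given by their mm9 position, since the build's gene annotation was not used. The first, chr9:63936544-63937921, had folds of 22.3, 14.0 and 14.8 in the H3K27ac lists in order of replicate and of 11.2 and 12.4 in the H3K4me1 lists. Its highest summits in these 5 lists had 80, 34, 32, 69 and 47 tags. Each H3K27ac list had 1 peak in the member, and this peak bridged a gap between the H3K4me1 peaks that both H3K4me1 lists had on either side. The next H3K27ac consensus region was 82497 bp away from the member's edge and the next H3K4me1 one 14871 bp away. However, H3K27ac replicates 1 and 3 each had a small further peak close outside the edge, with folds of 5.06 and 6.32. Counted from the member's centre, these peaks lay at -1108 to -910 bp and at -1074 to -826 bp.

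The second, chr15:75867242-75868139, had H3K27ac folds of 16.7, 13.4 and 17.1, and H3K4me1 folds of 13.5 and 8.04. It sat in a run of H3K4me1, with 4 H3K4me1 consensus regions within 12.5 kb and the nearest at 170 bp. The third, chr17:73326154-73327588, had H3K27ac folds of 12.5, 15.5 and 13.5, and H3K4me1 folds of 9.40 and 10.9, with 3 H3K4me1 neighbours. The 3 best-ranked elements thus had no, 4 and 3 H3K4me1 consensus neighbours.

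**Figure D5:**
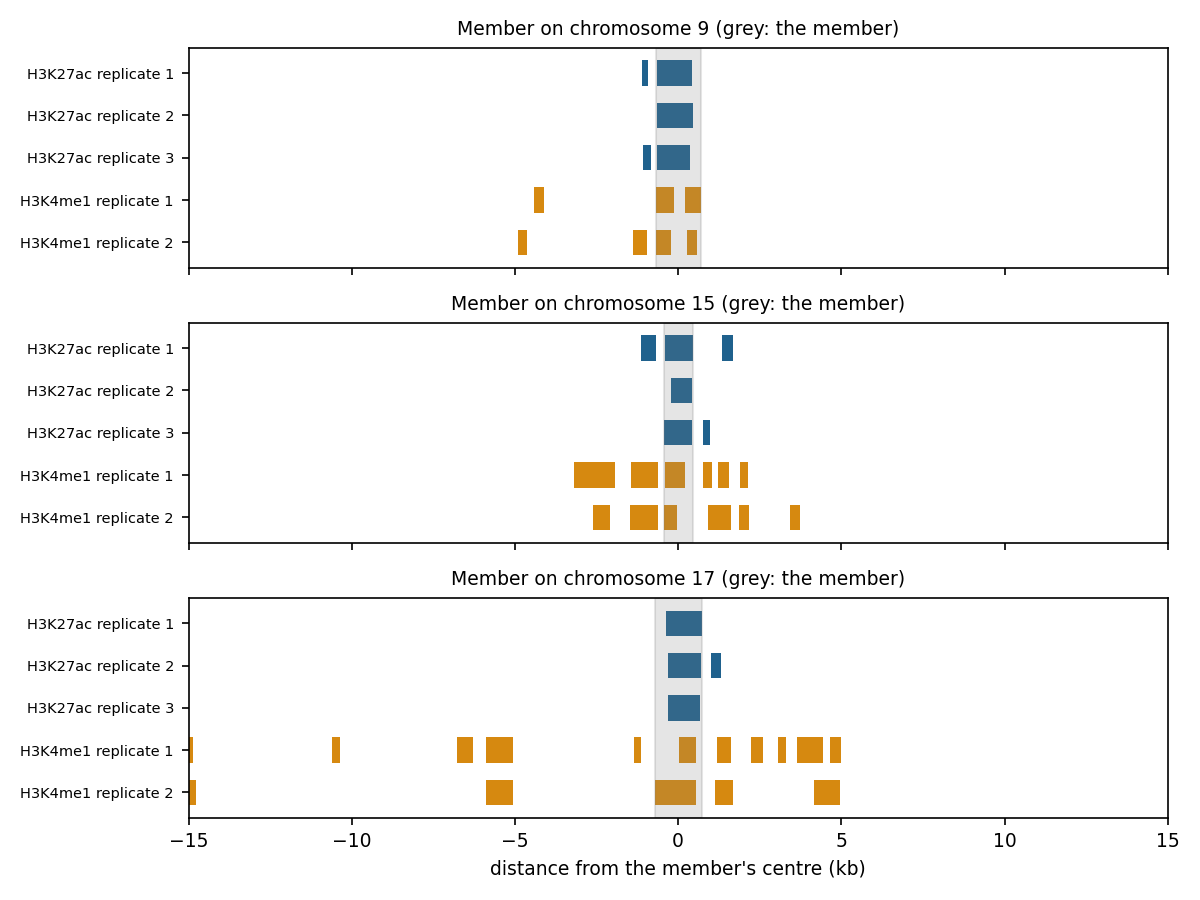
Peaks of the 5 lists (rows, bars from start to end) around the 3 members with the best mean rank, on chromosomes 9, 15 and 17, by distance from the member's centre (horizontal axis, kb), with the member shaded grey. All 3 have 1 block of H3K27ac in each list within the member, and H3K4me1 beyond it is sparse on chromosome 9 and dense on chromosomes 15 and 17. Further H3K27ac peaks, not shared by all 3 lists, lie close outside each member.

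The next pair ranked higher among members by H3K4me1 than by H3K27ac. The member chr5:145603194-145604585 had H3K27ac folds of 9.73, 7.56 and 10.8, and H3K4me1 folds of 16.7 and 13.0. The compact chr1:157070300-157070965, of 666 bp, had H3K27ac folds of 10.6, 8.31 and 10.8, and H3K4me1 folds of 13.4 and 9.36, and its summits lay 7 bp apart.

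The other 3 ranged from an element with no neighbour to one with several. The member chr13:112694856-112696260 had H3K27ac folds of 17.4, 9.58 and 13.1, and H3K4me1 folds of 10.5 and 7.31. The member chr3:135381113-135382191 had H3K27ac folds of 11.9, 9.36 and 13.6, and H3K4me1 folds of 7.31 and 12.2, with no neighbour of either mark within 12.5 kb and summits 653 bp apart. The last, chr4:151526623-151528017, had H3K27ac folds of 14.2, 7.14 and 9.46, and H3K4me1 folds of 9.30 and 10.3, with 5 H3K4me1 neighbours.

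The members farthest from other H3K27ac had folds within the range of the rest. The farthest, chr16:59458634-59459857, was 1851389 bp from the next H3K27ac consensus region and had H3K27ac folds of 7.30, 7.64 and 8.15, and H3K4me1 folds of 4.29 and 10.3, close to the medians of members for H3K27ac. The next, chr6:140571002-140571893, at 1722046 bp, had H3K27ac folds of 14.1, 9.71 and 8.45, and H3K4me1 folds of 3.67 and 7.53. The third, chr4:72388089-72388810, lay 1434662 bp from other H3K27ac and 2190907 bp from other H3K4me1, and had no H3K27ac peak of any list in its flanks. The first and second had further H3K27ac peaks of 2 and 3 lists within 12.5 kb, not shared by all lists at 1 place.

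That element on chromosome 4 had H3K27ac folds of 4.35, 7.29 and 7.66, and H3K4me1 folds of 5.10 and 7.78, and the marks' summits lay 5 bp apart. The remaining ones were chr6:74309918-74311009 at 1110750 bp, with H3K27ac folds of 9.93, 7.92 and 9.46, and H3K4me1 folds of 5.49 and 6.21, and chr12:27140620-27141654 at 998964 bp. This element on chromosome 12 had H3K27ac folds of 9.06, 5.35 and 8.56, and H3K4me1 folds of 4.71 and 7.47, with another H3K4me1 region 633 bp away. Both of these had further H3K27ac peaks of 2 lists within 12.5 kb. Across all 633 members, distance to other H3K27ac had a Spearman correlation of -0.04 with the mean rank by H3K27ac fold and -0.01 with that by H3K4me1 fold.

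Members in which the marks were most unequal by rank lay in different H3K4me1 surroundings. H3K27ac was most ahead in chr10:53759592-53760974, with H3K27ac folds of 17.4, 10.9 and 9.75, and H3K4me1 folds of 4.62 and 3.32. Next came chr2:75775699-75777113, with H3K27ac folds of 18.05, 9.09 and 9.72, and H3K4me1 folds of 5.02 and 4.32, and then chr1:120355752-120356563, with H3K27ac folds of 15.8, 7.42 and 11.7, and H3K4me1 folds of 3.33 and 4.99. None of these 3 had another H3K4me1 consensus region, or a further H3K27ac peak of any list, within 12.5 kb.

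H3K4me1 was most ahead in chr16:30705099-30705564, of 466 bp, with H3K27ac folds of 3.83, 5.25 and 3.63, and H3K4me1 folds of 11.3 and 9.29. Next came chr5:141206779-141207772, with H3K27ac folds of 5.98, 4.08 and 4.99, and H3K4me1 folds of 11.2 and 10.8, and then chr4:125175154-125176635, with H3K27ac folds of 4.51, 5.58 and 5.14, and H3K4me1 folds of 9.53 and 14.8. Each of these 3 had another H3K4me1 consensus region close by, at 304, 298 and 194 bp. The members on chromosomes 16 and 5 also had no further H3K27ac peak of any list within 12.5 kb. The member on chromosome 4 had further peaks of 2 lists there. With 3 regions of each kind this describes those regions only.

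The shortest members were chr15:72898308-72898652 of 345 bp, chr10:16921149-16921536 of 388 bp and chr17:31795903-31796291 of 389 bp. The first had H3K27ac folds of 10.0, 5.76 and 9.90, and H3K4me1 folds of 6.43 and 4.01. In the 3 the centres of the marks were 24, 78 and 28.5 bp apart, and a length this short leaves the centres little room to differ.

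Members were spread thinly over the genome. Each chromosome from 1 to 19 held 14 to 62 members, from 1.26 to 3.95 per 10 Mb with a median of 2.50, and the highest density was on chromosome 19 and the lowest on chromosome 14. The share of short joined regions that stood alone ran from 11.7% on chromosome 9 (18 of 154) to 36.0% on chromosome 16 (31 of 86), with a median of 21.5%. Chromosome 11, which had the most joined regions per Mb at 6.63, had a share of 15.1% (44 of 292). Neighbouring members lay a median of 1529 kb apart over 614 gaps, and 21 gaps (3.42%) were under 50 kb.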

How the data were processed

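Chromatin was crosslinked with 1% formaldehyde, sonicated, immunoprecipitated and read on an Ion Torrent sequencer, per the labels' protocols. Per the file headers, the authors ran MACS2 on every immunoprecipitate separately with the matching input as control. The q-value limit was 0.001, and the version was 2.1.1.20160309 for H3K27ac and 2.0.10.20130306 for H3K4me1, so it changes with the mark. The build is mm9, per the submitters' processing notes, while no aligner is given in these sources. The deposited signal is the summit pileup of extended tags, scaled to the smaller library, per the file headers. With the scale undone, 100% of peaks had whole tags within 0.05. The deposited fold enrichment is a ratio, made by the authors, of that pileup over the local input. The deposited −log10 q-value is the authors' own. Folds were compared only within a list, since libraries, backgrounds and versions differ between lists, and narrow calls can split a broad mark into pieces.

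Peaks of a list that overlapped or touched were merged, positions count from 1, and flanks are the 12.5 kb beyond each edge. The highest fold of a region is that of its highest peak in a list. Tags and q are each the highest value in the region in that list, so they can come from another of its peaks. Shares have 95% Clopper-Pearson intervals, which cover counting error only. Members, lists and tests were chosen with earlier results of these data known. Regions were named by a rule: the 8 best by mean rank of fold over the marks, the 5 farthest from other H3K27ac, the 3 most ahead in each mark, the 3 shortest, and those next to each limit. Alternatives were peaks with a minus log10 q of at least 10, marks overlapping by 0.5 or more of the shorter region, gaps of up to 1000 bp joined, H3K27ac from at least 2 lists, other length and distance limits, each list left out, pileup for fold and summits for midpoints. Genes, transcription starts, sequences and motifs were not analysed here, as no sequence or annotation of mm9 was used. The software was SciPy 1.17.1, pandas 2.3.3, NumPy 2.4.6 and Matplotlib 3.10.9 under Python 3.11.15. The code that builds and classes the regions was tested on simulated data, where the counts per class matched those of the 1084 planted regions. Positions, folds, layouts and flanks were not checked there.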

Additional observations from a re-analysis of the deposited data

How the results depend on the processing

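Members over short crowded regions stayed below 1 in fold for both marks under all alternatives in which this ratio was computed. The mean difference in the share found again stayed negative in the 7 alternative sets of regions for which it was computed, which leave out H3K27ac from at least 2 lists, and ran from -6.30 to -2.93 percentage points. It was negative in 4 of 5 lists at a minus log10 q of at least 10 (exact p = 0.125), at a length limit of 1000 bp (exact p = 0.125) and with peaks joined across 1000 bp, where it was -2.93 (exact p = 0.1875). With only peaks of a minus log10 q of at least 10 there were 212 members, 30.5% of short regions stood alone, the ratios were 0.958 for H3K27ac and 0.982 for H3K4me1, 59.9% had an H3K4me1 neighbour and 25% had the longer H3K4me1 part. With an overlap of at least 0.5, 20.3% stood alone, the H3K4me1 ratio was 0.957 and the centres were 156 bp apart. Joining across 1000 bp left 302 members, 54.2% of short regions, with ratios of 0.994 and 0.988, an H3K4me1 neighbour in 48.0% and centres 264.75 bp apart. With H3K27ac from at least 2 lists, 16.5% stood alone, 62.5% had an H3K4me1 neighbour and 52.5% had the longer H3K4me1 part. A length limit of 1000 bp gave 318 members, 23.9% alone, an H3K4me1 ratio of 0.957 and centres 108.75 bp apart, and one of 2000 bp gave a ratio of 0.966 and 246 bp. A distance of 5000 bp gave 966 members, 33.7% alone, an H3K4me1 ratio of 0.963 and an H3K4me1 neighbour in 75.7%. A distance of 25000 bp gave 409 members, 14.3% alone and ratios of 0.956 and 0.970. Pileup in place of fold gave ratios of 0.902 and 0.948, and summits in place of midpoints gave 226.5 bp. Against short crowded regions over 1000 bp from other H3K27ac, chosen after seeing the data, the ratios were 0.989 and 0.966. The cause of these shifts was not tested.

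With each list left out in turn, there were 660 to 944 members, 17.8 to 22.1% of short regions stood alone, the ratios were 0.915 to 0.955 for H3K27ac and 0.9505 to 0.966 for H3K4me1, and 65.4 to 78.9% had an H3K4me1 neighbour. The centres were 175.25 to 199.5 bp apart, and the H3K4me1 part was the longer in 16.5 to 51.7%. The mean difference in the share found again ranged from -6.56 to -4.31 percentage points over sets of 4 lists left out.

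No paired analysis was possible because the 5 immunoprecipitates are numbered through in their titles, without pairs, and each value compares regions within a list. Depth limits the members: at medians of 18 and 19 tags in H3K27ac replicates 2 and 3, a weak peak can miss the caller's limit, so standing alone means only that no second place passed it in all lists of the mark.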
